A study of Homo sapiens with 2 samples.

Results

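The genes described here encode 10 enzymes that make, convert or inactivate androgens, with AKR1C3 at their centre. They were chosen by symbol (AKR1C1, AKR1C2, AKR1C3, SRD5A1, SRD5A3, HSD17B4, STS, UGT2B11, UGT2B15 and UGT2B17), and all 10 were found among the 25268 symbols of the deposited tables. The cells were C4-2B MDVR, a prostate cancer line derived from LNCaP that grows without testicular androgen and resists enzalutamide, kept in 20 µM of that antiandrogen. For 3 days the cultures received either 20 µM Indocin or the vehicle DMSO, and 1 RNA-seq library of each was analysed. Enzalutamide was thus the background of both libraries, and all values come from 1 resistant line. Indocin is indomethacin, a cyclooxygenase inhibitor that also blocks the AKR1C3 enzyme. The measurements are of RNA, and a change in enzyme activity would not be seen in them.

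Prostate cancer cells deprived of testicular androgen can form testosterone and dihydrotestosterone from adrenal precursors. STS, steroid sulfatase, frees dehydroepiandrosterone from its sulfate. AKR1C3 reduces androstenedione to testosterone, and the steroid reductase SRD5A1 acts on androstenedione and testosterone on the way to dihydrotestosterone. Androgens are lost again by reduction of dihydrotestosterone, in which AKR1C2 takes part, and by glucuronidation, which in the prostate is mainly the work of UGT2B15 and UGT2B17.

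Expression was given as FPKM, in which fragments are divided by the length of the transcript and by the size of the library, so levels of different genes can be compared per length. The number of fragments behind a value is unknown, and with 1 library per group no difference below has a replicate check, a test or an error. Ratios are given as log2((Indocin FPKM + 1)/(DMSO FPKM + 1)), a scale that understates the change of genes with low values. The FPKM sum was 583096 in the Indocin library and 617510 in the DMSO library, and the 11965 tested genes, those whose mean FPKM over the libraries was 1 or more, had a median log2 ratio of -0.02. All 11 prostate luminal markers reported, KLK3 and FOLH1 among them, had at least 1 FPKM in both libraries. Of 10 neuroendocrine markers 2 did (ENO2 and DLL3), and of 12 markers of leukocytes, endothelium, stroma and basal cells 1 did (COL1A1). The leukocyte marker CD3E, the endothelial marker PECAM1 and the stromal markers COL3A1 and DCN were listed at 0 in both libraries.

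Sequence identity decides how firmly the AKR1C and UGT2B values can be read, because these genes share stretches longer than many sequencing reads. The coding sequences of AKR1C1, AKR1C2 and AKR1C3, each of 323 codons on chromosome 10, aligned without gaps in the GENCODE release 29 transcripts. AKR1C1 and AKR1C2 differed at 19 of 969 bases (98.0% identical), AKR1C1 and AKR1C3 at 83 (91.4%), and AKR1C2 and AKR1C3 at 87 (91.0%). The 60 bases in which AKR1C1 and AKR1C2 differ most, coding bases 103 to 162, hold 10 of those 19 differences. They are shown with the same bases of AKR1C3, and capitals mark the 15 columns at which the 3 genes are not all alike.
AKR1C1: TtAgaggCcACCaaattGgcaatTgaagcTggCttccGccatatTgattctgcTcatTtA
AKR1C2: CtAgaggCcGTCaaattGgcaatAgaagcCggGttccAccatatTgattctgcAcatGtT
AKR1C3: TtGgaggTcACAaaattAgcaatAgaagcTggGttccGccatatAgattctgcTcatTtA

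The same holds within the UGT2B cluster on chromosome 4. UGT2B15 and UGT2B17 differed at 55 of 1590 coding bases (96.5% identical), and UGT2B11 and its neighbour UGT2B28 at 47 of 1587 (97.0%). Between these pairs identity was lower, 84.5% for UGT2B11 and UGT2B15. The 60 bases with the most differences between UGT2B15 and UGT2B17, coding bases 242 to 301, are shown because these enzymes are the main androgen-glucuronidating forms, and capitals mark the 9 differing bases.
UGT2B15: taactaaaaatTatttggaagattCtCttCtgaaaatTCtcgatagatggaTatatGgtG
UGT2B17: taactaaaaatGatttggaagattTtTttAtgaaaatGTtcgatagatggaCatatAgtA

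Of all 50-base windows in the coding sequence, 54.3% of AKR1C1, 57.1% of AKR1C2 and 23.0% of AKR1C3 occurred unchanged in a transcript of another gene. For UGT2B11, UGT2B15 and UGT2B17 these shares were 49.0%, 36.2% and 36.5%. With windows of 100 bases the highest share was 26.4%, for AKR1C2. SRD5A3 and HSD17B4 shared no window of either length, STS 0.353% and SRD5A1 5.22% of 50-base windows, each with a pseudogene of its own. Among annotated transcripts, any 50-base read of the coding sequence thus names SRD5A3 or HSD17B4 alone, and so do nearly all such reads of STS and SRD5A1. For AKR1C1 and AKR1C2 more than 50% of such reads fit another gene too. The read length is not given in the sources used here.

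**Figure D1:**
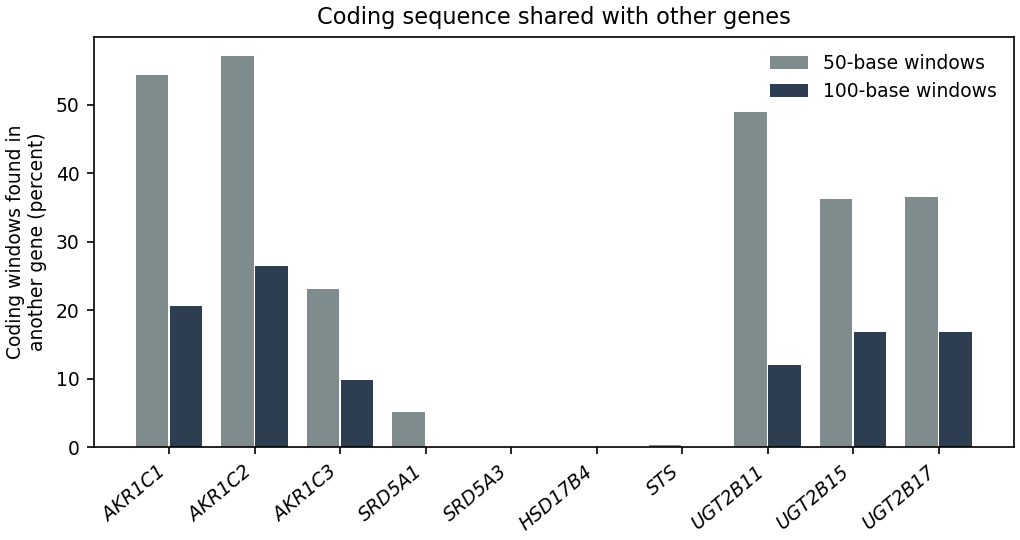
Percent of windows of 50 bases (grey) and 100 bases (dark) in the coding sequence of each gene that also occur in a transcript of another gene. AKR1C1, AKR1C2 and the UGT2B genes share most, with 57.1% for 50-base windows of AKR1C2, while SRD5A3 and HSD17B4 share none.

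AKR1C1 was the only one of the 10 genes past 1.5-fold on the log2(FPKM + 1) scale, and it was higher in the Indocin library. None was past 1.5-fold lower. Among all tested genes 2.19% were past 1.5-fold higher and 0.744% past 1.5-fold lower, and these shares were 2.24% and 0.746% when genes down to a mean of 0.5 FPKM were admitted. A single gene of 10 is too small a count to set apart from that background. Of the 10 genes 6 had a log2 ratio above 0 and 4 below, and their median was 0.11. A mean of 1 FPKM was reached by 7 genes, and AKR1C1, AKR1C2 and UGT2B17 lay below it.

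**Figure D2:**
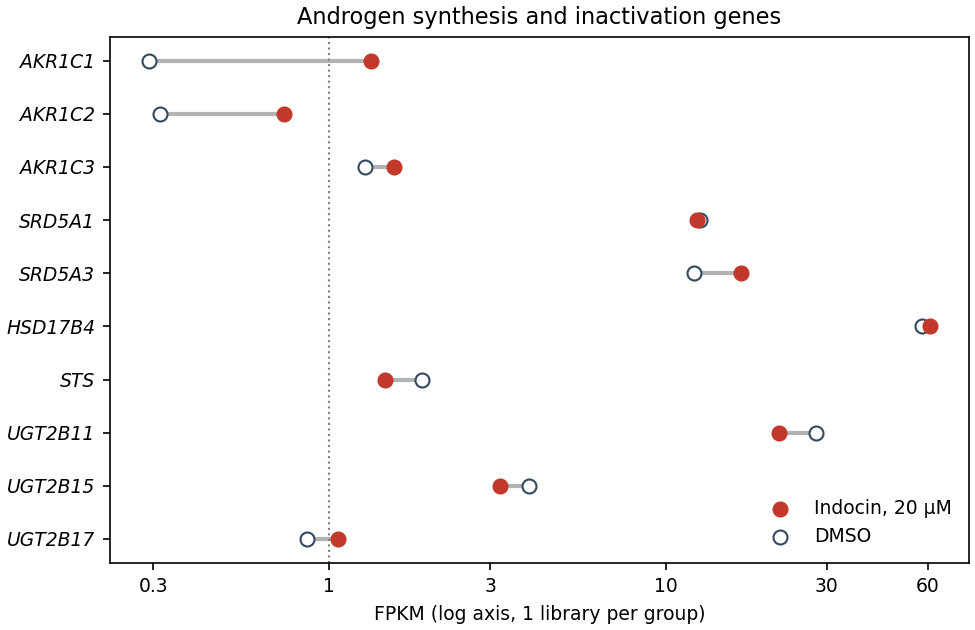
FPKM of the 10 genes on a log axis in the Indocin library (filled) and the DMSO library (open), joined by a grey line. The dotted line marks 1 FPKM. The widest gap is that of AKR1C1, with 1.33 FPKM in the Indocin library against 0.291 FPKM in the DMSO library.

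The levels covered a wide range. HSD17B4 was the highest of the 10 in both libraries and at or above 87.5% of tested genes in the Indocin library and 86.0% in the DMSO library. UGT2B11 came next in both. SRD5A3 and SRD5A1 followed near the middle of all tested genes, in this order in the Indocin library (16.7 and 12.3 FPKM) and with SRD5A1 slightly above SRD5A3 in the DMSO library (12.6 and 12.1 FPKM). UGT2B15 was next in both libraries. The genes below it, STS, UGT2B17 and the AKR1C genes, all lay under 2 FPKM. AKR1C1 was lowest in the DMSO library and ahead of UGT2B17 and AKR1C2 in the Indocin library. Without replicates it cannot be said which neighbours in this order differ.

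AKR1C3, also known as a prostaglandin F synthase, stood at 1.55 FPKM in the Indocin library and 1.27 FPKM in the DMSO library (log2 ratio 0.17). The AKR1C3 transcript was thus low among tested genes, at or above 5.15% of them in the Indocin library and 3.52% in the DMSO library. Without a library of another line or without enzalutamide, it cannot be said whether this level is low for such cells. Of tested genes, 17.9% had a ratio at least as high as AKR1C3. AKR1C1, which inactivates progesterone, stood at 1.33 FPKM in the Indocin library and 0.291 FPKM in the DMSO library, a 4.58-fold difference in FPKM and a log2 ratio of 0.85. AKR1C2, which reduces dihydrotestosterone to a weak androgen, stood at 0.735 FPKM in the Indocin library and 0.315 FPKM in the DMSO library (2.34-fold in FPKM, log2 ratio 0.40). The levels of AKR1C1 and AKR1C2 were thus both higher in the Indocin library, AKR1C1 by more. Among the 910 genes that averaged from 0.5 to under 1 FPKM, 2.97% were past 1.5-fold higher on the log2(FPKM + 1) scale. In FPKM alone, 0.769% of the 910 genes were as many-fold higher as AKR1C1, itself included, and 4.07% as AKR1C2. The call rested on the pseudocount: with 5 FPKM the AKR1C1 ratio was 0.26, short of 1.5-fold, and with 0.1 FPKM AKR1C2 passed it as well (1.01).

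Because reads of the 3 AKR1C genes can be divided between them, their FPKM were also summed. The sum was 3.62 FPKM in the Indocin library and 1.88 FPKM in the DMSO library, 1.92-fold higher in FPKM, with a log2 ratio of 0.68 that was past 1.5-fold (0.32, and not past it, with a pseudocount of 5 FPKM). AKR1C3 made up 42.9% of the sum in the Indocin library and 67.8% in the DMSO library, and AKR1C1 made up 36.8% in the Indocin library and 15.5% in the DMSO library. AKR1C1 and AKR1C2 together stood at 2.07 FPKM in the Indocin library and 0.606 FPKM in the DMSO library, so the sum of the near-identical pair was 3.41-fold higher in FPKM. This pair, each with a mean under 1 FPKM, made up 1.46 FPKM of the 1.74 FPKM by which the 3-gene sum differed. No background share was computed for such sums. Of 50-base windows of the coding sequence, 14.7% of AKR1C1 and 18.4% of AKR1C2 also occur in AKR1C3, so reads can pass between the pair and AKR1C3 as well. AKR1C4, the liver form, and AKR1CL1 were listed at 0 in both libraries and added nothing. A sum over paralogs depends less on the division of shared reads than its parts do, but transcript lengths that differ, and shared reads that were dropped or counted more than once, would still change it. How reads with several matches were treated is not given in the sources used here.

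**Figure D3:**
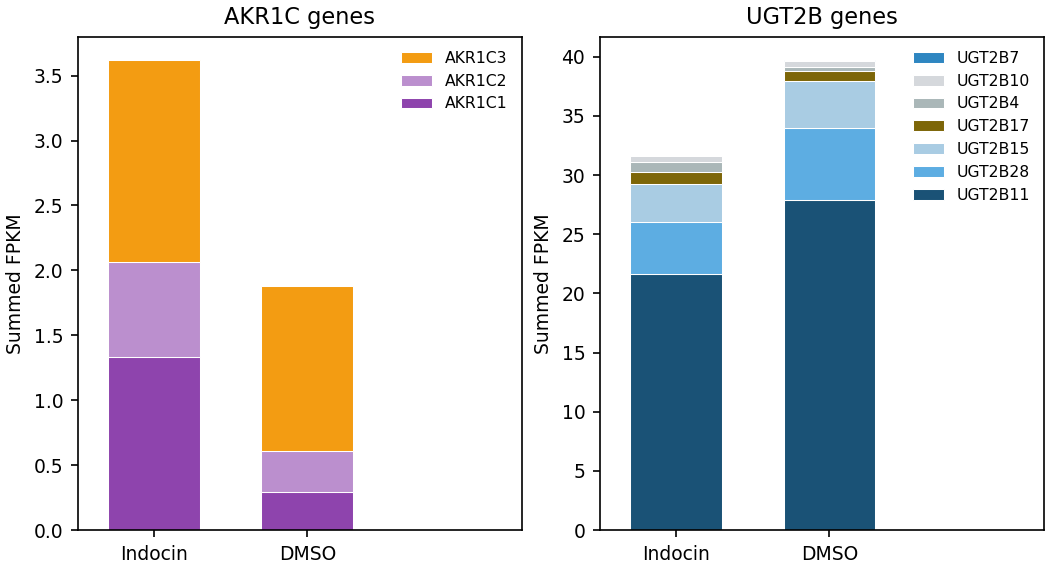
Stacked bars of FPKM in the Indocin library (left bar) and the DMSO library (right bar) for 3 AKR1C genes and, on a separate axis, for 7 UGT2B genes. The AKR1C sum is 3.62 FPKM in the Indocin library and 1.88 FPKM in the DMSO library, with most of the gap in AKR1C1 and AKR1C2, and the UGT2B sum is 31.6 FPKM in the Indocin library and 39.7 FPKM in the DMSO library, with most of the gap in UGT2B11.

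The bases just before the AKR1C transcription starts are shown because AKR1C1 and AKR1C2 are almost identical there as well. The FPKM of these 2 genes are not independent, since 51.6% of the 50-base coding windows of each occur in the other. A role of the promoter in their ratios was not tested. In the RefSeq promoter table (GRCh38.p14), which held 9 of the 10 genes, the 250 bases before the start of AKR1C1 and AKR1C2 matched at 245 of 246 aligned bases, while AKR1C1 and AKR1C3 matched at 183 of 241 (75.9%). The last 150 bases before each start lie at chr10:4963265-4963414 (plus strand), chr10:5003858-5004007 (minus strand) and chr10:5048631-5048780 (plus strand). Capitals mark the longest run, 12 bases, that all 3 share.
AKR1C1: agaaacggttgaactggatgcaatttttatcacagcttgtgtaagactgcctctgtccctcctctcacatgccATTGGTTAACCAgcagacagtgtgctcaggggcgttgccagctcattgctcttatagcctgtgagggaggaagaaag
AKR1C2: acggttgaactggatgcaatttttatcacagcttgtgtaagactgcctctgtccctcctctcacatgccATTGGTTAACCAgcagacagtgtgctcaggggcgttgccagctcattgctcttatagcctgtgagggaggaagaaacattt
AKR1C3: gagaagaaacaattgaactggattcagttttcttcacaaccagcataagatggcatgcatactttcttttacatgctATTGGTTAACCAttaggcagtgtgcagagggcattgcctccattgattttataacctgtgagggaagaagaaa

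AKR1C genes are known as targets of NRF2, the antioxidant transcription factor, and ATF4 is the factor of the amino acid stress response. The windows of 250 bases before and 50 after the start were searched on both strands for TGACNNNGC, the core of the antioxidant response element, and for TGATGNAAN, the CARE motif bound by ATF4 with its partners. None of the AKR1C windows held either motif, which says nothing of elements further away. TGACNNNGC occurred in the windows of SRD5A3 and UGT2B11, 2 of 9, against 13.3% of 35116 promoters. TGATGNAAN occurred in that of HSD17B4, 1 of 9, against 3.61% of promoters. These matches are letters in a window and not shown binding sites.

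Both enzymes of the reductase pair were expressed at similar levels, and they differed in ratio. SRD5A1, the isoenzyme that prevails in castration-resistant tumours, stood at 12.3 FPKM in the Indocin library and 12.6 FPKM in the DMSO library (log2 ratio -0.03, turning to 0.04 when the libraries were rescaled to an equal upper quartile or an equal FPKM sum). SRD5A3, better known as the polyprenol reductase that supplies dolichol for N-glycosylation, stood at 16.7 FPKM in the Indocin library and 12.1 FPKM in the DMSO library (log2 ratio 0.43, 1.38-fold in FPKM). Of the 7 tested genes it had the ratio furthest from 0, and 3.97% of tested genes had a ratio at least as high. SRD5A2, the main prostate isoenzyme, was listed at 0.0907 FPKM in the Indocin library and 0.0127 FPKM in the DMSO library. The 150 bases before the SRD5A3 start, at chr4:55346092-55346241 (plus strand), are shown with the TGACNNNGC match, read on the other strand, in capitals.
SRD5A3: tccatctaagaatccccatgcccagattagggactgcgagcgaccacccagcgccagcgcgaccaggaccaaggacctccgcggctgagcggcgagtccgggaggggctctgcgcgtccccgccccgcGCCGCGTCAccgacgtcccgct

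The dolichol and N-glycan assembly genes, among which SRD5A3 acts, had lower ratios. All 22 listed genes were measured and none was past 1.5-fold, with 8 above 0, 14 below and a median of -0.05. The median changed sign, to 0.01 with an equal upper quartile and 0.02 with an equal FPKM sum. The furthest were ALG8 (-0.27), ALG3 (-0.25) and DPAGT1 (-0.21), against 0.43 for SRD5A3.

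HSD17B4, the peroxisomal D-bifunctional protein that also oxidises estradiol and androstenediol, stood at 60.7 FPKM in the Indocin library and 57.4 FPKM in the DMSO library (log2 ratio 0.08). Of 17 measured genes of peroxisomal beta-oxidation none was past 1.5-fold and the median was -0.01. Carnitine octanoyltransferase, CROT, was the furthest, with 18.1 FPKM in the Indocin library and 27.3 FPKM in the DMSO library (-0.57). PECR (0.32) and ACOX2 (0.26) lay on the other side.

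STS stood at 1.46 FPKM in the Indocin library and 1.89 FPKM in the DMSO library (log2 ratio -0.23). It had the lowest ratio of 9 measured sulfatase genes, of which 7 were above 0, up to ARSG (0.26) and ARSD (0.22), and none was past 1.5-fold. On the opposing arm, the hydroxysteroid sulfotransferase SULT2B1 stood at 8.70 FPKM in the Indocin library and 10.3 FPKM in the DMSO library (-0.22), while SULT2A1 and the estrogen sulfotransferase SULT1E1 were listed at 0 in both. PAPSS1, which makes the sulfate donor, had a ratio of -0.25 and the donor's Golgi carrier SLC35B2 of -0.26. Above 0 were SULT1A1 (0.22), SUMF2 (0.18), the other carrier SLC35B3 (0.16) and the sulfatase-activating SUMF1 (0.07), so 4 of 8 tested genes of the list lay on each side, with a median of -0.08 (0.07 among genes with a mean of 5 FPKM or more).

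Of the glucuronidating enzymes, UGT2B11 stood at 21.6 FPKM in the Indocin library and 27.9 FPKM in the DMSO library (log2 ratio -0.35, 1.29-fold lower in FPKM). UGT2B15, which glucuronidates dihydrotestosterone and its metabolites, stood at 3.21 FPKM in the Indocin library and 3.90 FPKM in the DMSO library (-0.22). UGT2B17, which has the same substrates, stood at 1.06 FPKM in the Indocin library and 0.856 FPKM in the DMSO library (0.15). The last 2 genes thus had ratios of opposite sign, and their sum was 4.27 FPKM in the Indocin library and 4.76 FPKM in the DMSO library (-0.13). UGT2B28, another androgen-glucuronidating form, stood at 4.40 FPKM in the Indocin library and 6.16 FPKM in the DMSO library (-0.41), close to UGT2B11, with which it shares 18.8% of 50-base windows. UGT2B11 shares more of its windows, 29.6%, with the pseudogene UGT2B25P, which is in none of the sums given here. UGT2B4 was listed at 0.869 FPKM in the Indocin library and 0.384 FPKM in the DMSO library (0.43), UGT2B10 at 0.443 FPKM in the Indocin library and 0.449 FPKM in the DMSO library, and UGT2B7 at 0.0157 FPKM in the Indocin library and 0.0921 FPKM in the DMSO library.

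UGT2B11 held 68.4% of the summed FPKM of these 7 genes in the Indocin library and 70.2% in the DMSO library. The sum was 31.6 FPKM in the Indocin library and 39.7 FPKM in the DMSO library, a log2 ratio of -0.32. Over the 3 chosen UGT2B genes it was 25.9 FPKM in the Indocin library and 32.6 FPKM in the DMSO library, likewise -0.32. For UDP-glucuronate supply, the dehydrogenase UGDH stood at 51.6 FPKM in the Indocin library and 47.4 FPKM in the DMSO library (0.12). UGP2 and SLC35D2 of the same list had ratios of -0.04 and 0.19. The export carrier ABCG2 stood at 0.980 FPKM in the Indocin library and 1.70 FPKM in the DMSO library (-0.45). It was 1.74-fold lower in FPKM alone, and short of 1.5-fold after adding 1 FPKM. ABCC4 (0.02) and ABCC1 (-0.02) were near 0.

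**Figure D4:**
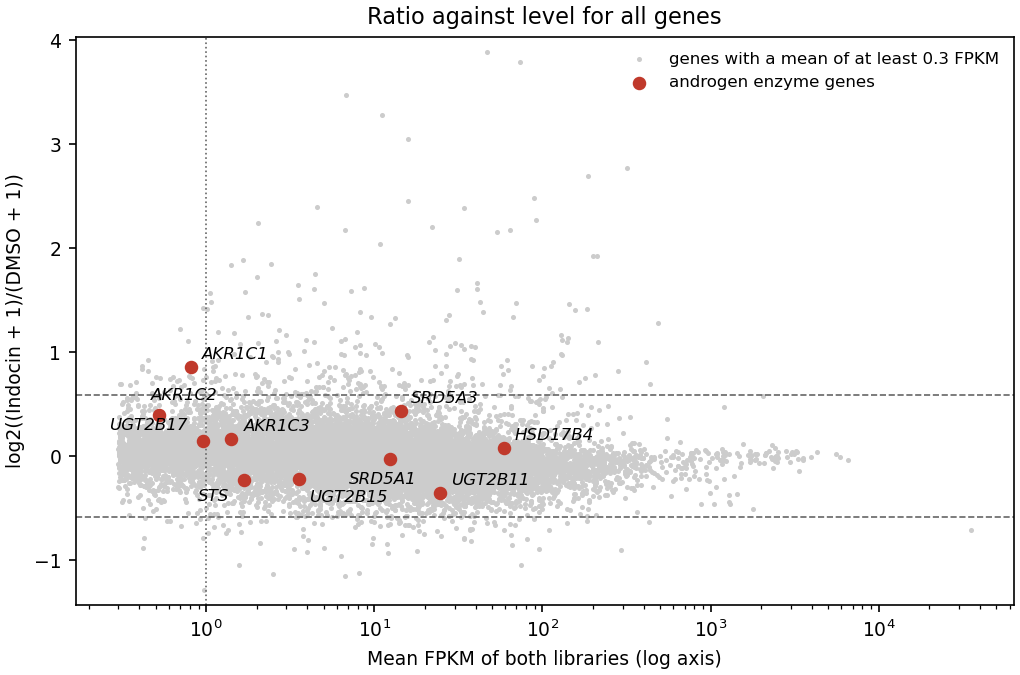
Log2 ratio on the FPKM + 1 scale, Indocin over DMSO, against the mean FPKM of both libraries on a log axis, for 13535 genes averaging 0.3 FPKM or more (grey) and the 10 androgen enzyme genes (red). Dashed lines mark 1.5-fold and the dotted line 1 FPKM. AKR1C1, at 0.85, is the only red point outside the dashed lines, and it lies left of the dotted line, where ratios rest on low values.

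Of 14 genes listed for the steps that lead from cholesterol to androstenedione, 6 were measured. The enzymes CYP17A1, HSD3B1 and CYP11A1 each had a mean under 1 FPKM. CYP17A1, which makes the adrenal androgen precursors, was listed at 0.0442 FPKM in the Indocin library and 0 in the DMSO library. HSD3B1, which converts dehydroepiandrosterone to androstenedione, stood at 0.218 FPKM in the Indocin library and 0.398 FPKM in the DMSO library, and the side-chain cleavage enzyme CYP11A1 at 0.787 FPKM in the Indocin library and 1.11 FPKM in the DMSO library (-0.24). All 6 measured genes of this list had ratios below 0, from CYB5A (-0.20), the cofactor of CYP17A1, to POR (-0.02), with a median of -0.12 and none past 1.5-fold. With an equal upper quartile or an equal FPKM sum, TSPO and POR lay above 0, and the median was -0.05 and -0.04.

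Among the other dehydrogenases of the HSD17B family, 9 were measured with HSD17B4 included and none was past 1.5-fold. HSD17B7, which acts in cholesterol synthesis, had the highest ratio, at 15.9 FPKM in the Indocin library and 11.9 FPKM in the DMSO library (0.39). HSD17B6, which can oxidise androstanediol back to dihydrotestosterone, stood at 1.08 FPKM in the Indocin library and 1.34 FPKM in the DMSO library (-0.17). HSD17B3, the testicular testosterone-forming enzyme, was listed at 0.115 FPKM in the Indocin library and 0 in the DMSO library, and the inactivating HSD17B2 at 0.211 FPKM in the Indocin library and 0.186 FPKM in the DMSO library. Among related oxidoreductases RDH11 was the furthest, at 111.7 FPKM in the Indocin library and 77.2 FPKM in the DMSO library (0.53), followed by DHRS3 (-0.36) and RDH10 (-0.36).

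Over all lists of enzymes and pathways, 187 further genes were in the tables, and 113 of them were tested. Of these 4 were past 1.5-fold higher, against 2.19% of all tested genes, and 0 past 1.5-fold lower, against 0.744%. Both counts are too small to set apart from those shares. With a pseudocount of 0.1 FPKM 2 were lower, ABCG2 at -0.74 and CROT at -0.59. All 4 higher genes were on the NRF2 target list. They were the cystine transporter SLC7A11 (3.05), malic enzyme ME1 (1.09), heme oxygenase HMOX1 (0.69) and GCLM (0.63), a subunit of glutathione synthesis. Whether NRF2 acted on them was not tested. Just short of 1.5-fold lay FTH1 (0.575) of the same list and RDH11 (0.53), which is not on it. With an equal upper quartile or an equal FPKM sum, 6 pathway genes were past 1.5-fold higher. Of 22 measured NRF2 targets 15 were above 0 and 7 below, with a median of 0.17, and the classic target NQO1 stood at 82.5 FPKM in the Indocin library and 69.9 FPKM in the DMSO library (0.24). CBR3 (-0.48) was the lowest of them.

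**Figure D5:**
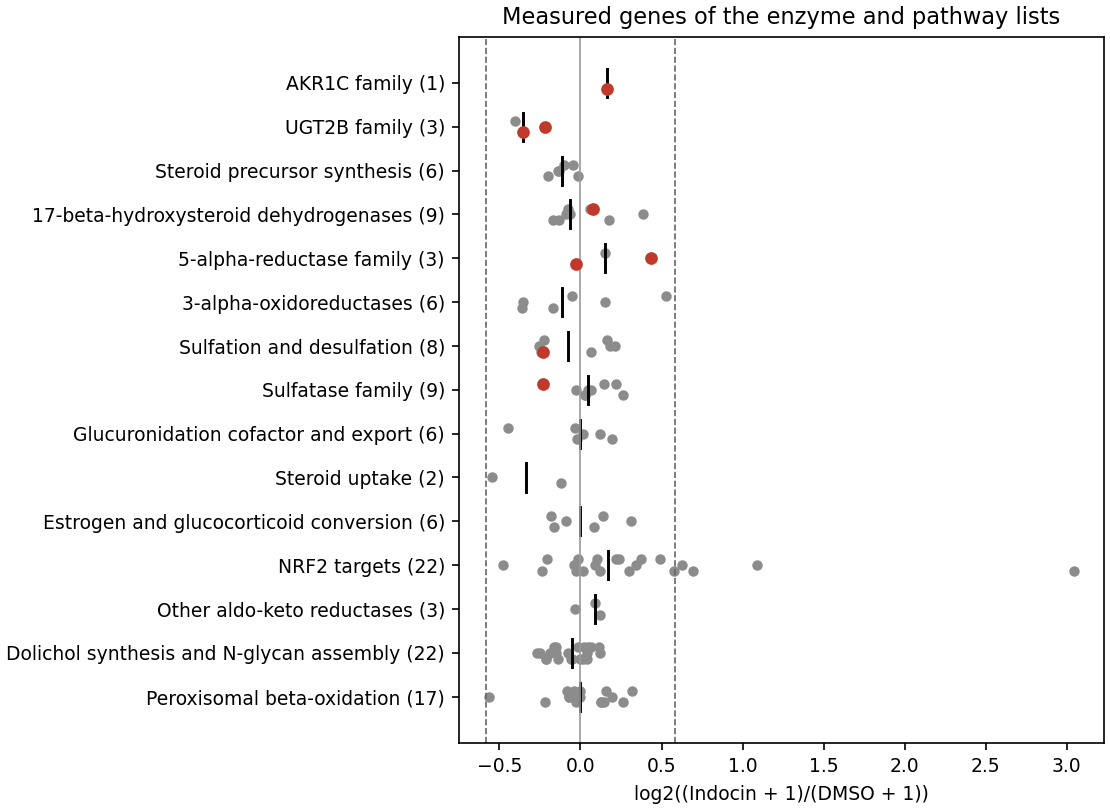
Log2 ratio, Indocin over DMSO on the FPKM + 1 scale, for the tested genes of each enzyme or pathway list that has any. Brackets give the number of tested genes. The 7 tested androgen enzyme genes are in red, and a black bar marks the list median. Dashed lines mark 1.5-fold. Of the genes drawn, all with a mean of 1 FPKM or more, only genes of the NRF2 target list lie beyond them, SLC7A11 at 3.05 and ME1 at 1.09 among them.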

How the data were processed

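Libraries of C4-2B MDVR cell RNA, 1 after Indocin and 1 after DMSO, were prepared with a stranded mRNA kit, per the labels' protocols. The deposited values were FPKM per gene symbol, made by the authors, with a status of OK on every line, per the file headers. Builds GRCh37 and hg19 and the tools Cuffnorm, StringTie, Cufflinks, TopHat and bcl2fastq are listed, per the submitters' processing notes. Roles, annotation, strand setting, read length and the treatment of reads that match several genes, on which the AKR1C and UGT2B values depend: not given in the sources used here.

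A count test cannot be run on FPKM, and absolute depth is unknown. The log2 ratio used a pseudocount of 1 FPKM. Tested genes had a mean of at least 1 FPKM and no symbol of a short RNA gene (2043 symbols were left out). A gene was called at 1.5-fold. Groups came from the treatment label. The genes, lists and threshold were chosen with earlier results of these data known. The text names the 10 genes, 11 relatives fixed by symbol, and list genes past 1.5-fold or else up to 3 with the largest ratios in size. Other named genes were chosen after their values were seen, and 1 marker gene is not reported here. Coding sequences came from GENCODE release 29 transcripts (the longest per gene) and promoters from RefSeq, both on GRCh38, so gene positions in the authors' build are not given. Python 3.11.15, pandas 2.3.3 and numpy 2.4.6 were used, and the calculation was tested on simulated data. Alternatives were other pseudocounts, filters, scalings and thresholds.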

Additional observations from a re-analysis of the deposited data

How the results depend on the processing

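With a pseudocount of 0.1 FPKM, AKR1C2 passed 1.5-fold (log2 ratio 1.01), so 2 of the 10 genes were higher, and 2 other pathway genes were lower, ABCG2 (-0.74) and CROT (-0.59). With a pseudocount of 5 FPKM 0 of the 10 genes were higher, since AKR1C1 stood at 0.26, and the AKR1C sum at 0.32. At a 2-fold threshold 0 of the 10 genes were higher, the AKR1C1 ratio (0.85) and that of the AKR1C sum (0.68) fell short, and 2 pathway genes stayed higher. At 1.5-fold, 3 pathway genes were higher with a pseudocount of 5 FPKM and 5 without a filter on low values. There were 5 with ratios centred on the median, and 6 with an equal upper quartile or an equal FPKM sum. A filter on low values removes AKR1C1, which was counted although its mean lies under 1 FPKM: of the genes with a mean of at least 1 or of at least 5 FPKM, 0 were higher. SRD5A1 changed sign, to 0.0373 with an equal upper quartile and 0.0445 with an equal FPKM sum. The other 7 genes kept their direction and stayed within 1.5-fold under every alternative run. These scalings moved the median over the tested genes to 0.04 and 0.05 (log2). Of 116 list medians recomputed, 19 changed sign, none reaching 0.08 in size. No paired analysis was possible because each group has 1 library. Low FPKM, those of AKR1C1 and AKR1C2 above all, rest on an unknown number of fragments.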

Other observations

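The UGT1A genes share most of their exons within 1 locus and differ in their first. UGT1A6 was listed at 0.892 FPKM in the Indocin library and 0.233 FPKM in the DMSO library (log2 ratio 0.62), and UGT1A1, which conjugates bilirubin, at 0.116 FPKM in the Indocin library and 0.512 FPKM in the DMSO library (-0.44). The sum over 9 UGT1A symbols was 1.23 FPKM in the Indocin library and 1.11 FPKM in the DMSO library, so the 2 ratios had opposite signs while the total was nearly equal. None of the 9 reached a mean of 1 FPKM, so UGT1A6, though past 1.5-fold, was left out of the count of pathway genes.

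Of 11 listed uptake carriers of steroid sulfates, 2 were measured, and the other 9 had a mean under 1 FPKM. SLCO4A1 stood at 15.4 FPKM in the Indocin library and 23.0 FPKM in the DMSO library (-0.55). A ratio as low as this was found in 1.11% of tested genes. SLCO3A1 had a ratio of -0.12. Among enzymes of estrogens and glucocorticoids, aromatase CYP19A1 was listed at 0.0131 FPKM in the Indocin library and 0.0128 FPKM in the DMSO library. HSD11B2, which inactivates cortisol, stood at 21.0 FPKM in the Indocin library and 24.0 FPKM in the DMSO library (-0.18), while its relative HSD11B1 was listed at 0 in both. H6PD, which supplies the cofactor of HSD11B1, stood at 9.59 FPKM in the Indocin library and 7.53 FPKM in the DMSO library (0.31). None of these measured genes was past 1.5-fold.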
